A study of Mus musculus with 4 samples.

Results

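The solute carrier family comprises the genes whose symbol begins with Slc or Slco, and 108 of the 5807 genes in the deposited comparison table matched that symbol rule. Solute carriers are membrane proteins that move sugars, amino acids, ions, metals, nucleotides and vitamins into cells, out of them or between their compartments. Some let a solute run down its gradient and others couple its passage to that of sodium, protons or a second solute, and the Slc25 group sits mostly in the inner mitochondrial membrane. Eosinophils are granulocytes that mature in the bone marrow and enter tissues, where fuel, oxygen and amino acid supply can differ from those of the marrow.

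Wild-type mice received LLC cells (Lewis lung carcinoma, a mouse line) into the pleural cavity. On day 2, eosinophils were sorted from their bone marrow (marrow eosinophils) and from their pleural lavage (pleural eosinophils), and each tissue gave 2 libraries. All mice of both groups carried LLC cells, the labels give no strain, the methods give ages of 6 to 8 weeks, and the labels do not say whether the libraries came from separate animals. Marrow cells were enriched through F4/80 and sorted as DAPI-CD45+SiglecF+SSChi, whereas pleural cells were enriched through CD45 and sorted as DAPI-CD11c-Gr1-/lowCD11b+F4/80+SiglecF+SSChi, so that tissue and gate cannot be told apart. The table gives 1 authors' mean of estimated reads per gene and tissue, so there is no value per library, no spread between replicates and no test, and every value below is a description of these means.

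To compare tissues, each mean was divided by the reads of all listed genes in that tissue, which came to 15947438 in pleural and 11762543 in marrow eosinophils and are not library totals. The log2 ratio of the scaled means, pleural cavity over bone marrow, is called the log2 ratio throughout. A mean under 3 reads was raised to 3 before the ratio was taken, and a ratio beyond 2-fold was counted as higher or lower past the threshold. A fold given as at least is set by that floor under this scaling, and another scaling moves it. For single genes with a mean above 0 and below 3 reads, the ratio of the means as they stand is printed instead, named as without the floor, because its interval belongs to it. Other scalings moved every log2 ratio by between -0.44 and 0.44, and 4 of the 108 genes then changed direction, among them Slc7a8, Slc38a10 and Slc25a12, each of them higher except when the median ratio was set to 0. Because the table lists only genes that the authors' comparison called, ratios near 1 are missing from it. The paper counted a smaller share of these genes as upregulated than the 42.5% that were higher under this scaling. Its own directions were not used, so a direction given here may differ from the paper's. Genes that are not listed have no direction here.

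As a whole, the family lay close to the other listed genes. Over 2-fold higher levels in pleural eosinophils were found for 20 of the 108 genes, which is 18.5% against 16% of all listed genes. Over 2-fold lower levels were found for 54 genes, which is 50% against 50.5%. The median log2 ratio was -0.99 in the family and -1.02 over all listed genes. Both shares lay near the background, and the differences described below are those between the members. Together the family took 0.936% of the listed reads in pleural and 0.810% in marrow eosinophils. Of the family's own reads, 44.6% in pleural and 29.5% in marrow eosinophils came from 5 genes, Slc25a5, Slc2a3, Slc16a3, Slc6a6 and Slc9a3r1. The last of these encodes NHERF1, a scaffold protein named after the carrier it binds, and with Slc9a3r2 it makes up the 2 members that are not carriers.

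**Figure D1:**
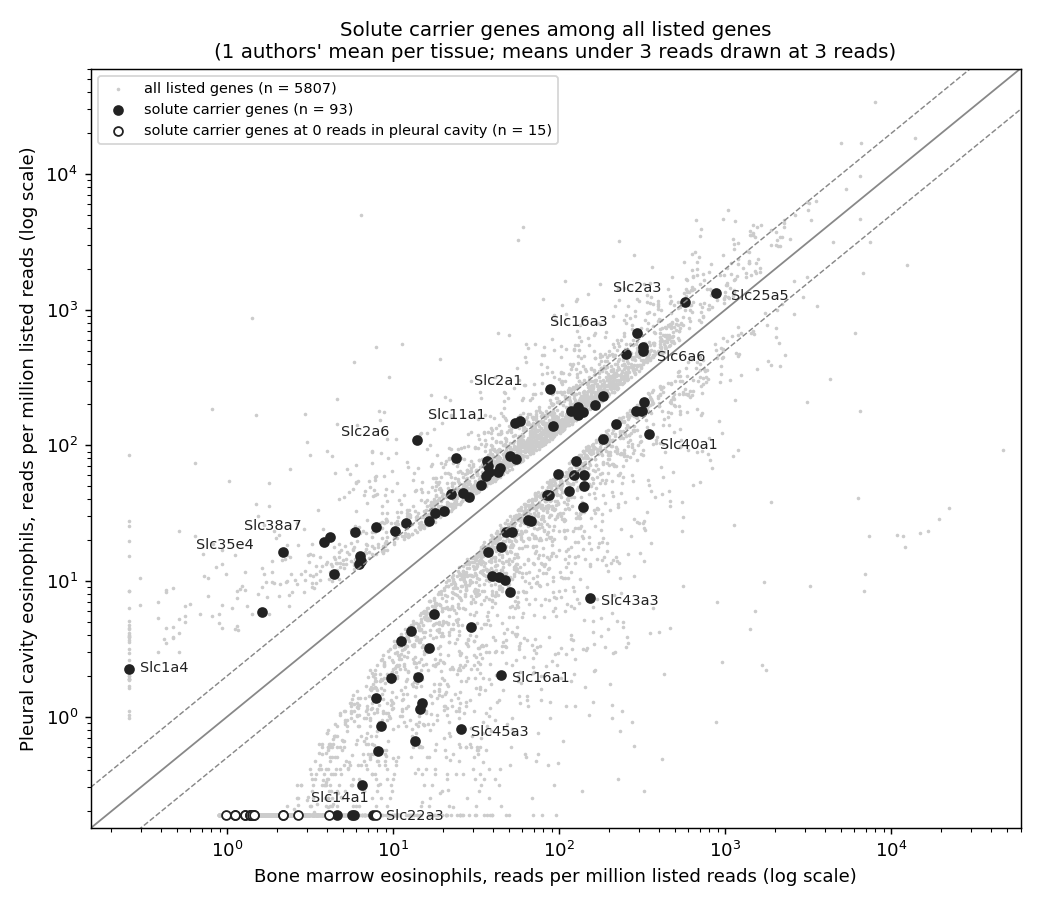
Each point is a gene, with its reads per 1000000 listed reads in marrow eosinophils on the x axis and in pleural eosinophils on the y axis, both on log scales. Black points are solute carrier genes, open points those at 0 reads in pleural eosinophils, grey points all listed genes, the solid line equality and the dashed lines 2-fold. Of the 108 genes, 20 lie above the upper dashed line and 54 below the lower one, and the empty band along the solid line follows from the choice of listed genes.

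Direction went with abundance. Of the 54 members in the upper part by mean level over both tissues, 30 were higher in pleural eosinophils, and in the lower part 16 of 54 were higher. The same split of all listed genes gave 64% and 21% higher. Among the 21 members whose mean reads reached 1000 in each tissue, 14 were higher and the median log2 ratio was 0.38, beside 0.44 for the 1524 listed genes of that kind. In pleural eosinophils, 15 of the 108 genes had 0 mean reads, which is 13.9% against 12% of all listed genes, and 0 of the 108 had 0 in marrow eosinophils, against 0.241% of all listed genes. Mean reads were fractional, as happens when RSEM divides reads between similar sequences, for 18.5% of the family and 25.8% of all listed genes, and such values are less certain.

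Carriers were put into classes by the number of their Slc family, except single genes whose cargo is known to differ, such as Slc5a8, Slc5a12 and Slc43a3. A class can still hold other cargo, as the inorganic ion class holds the glutamate and ATP carriers Slc17a6 and Slc17a9. Sugar carriers had the highest class median of the carriers, with a log2 ratio of 0.98 over 5 genes. Mitochondrial carriers followed with 0.33 over 15 genes and metal carriers with -0.10 over 12. Carriers of nucleosides and nucleotide sugars had -0.71 over 13 genes, and carriers of amino acids and peptides had -0.83 over 21, a median that turned to 0.38 where 10 mean reads were required in each tissue and to 0.48 without fractional reads. The mitochondrial median turned to -0.11 when the median ratio was set to 0, and that of metal carriers turned to 0.34 with unscaled reads and to 0.53 with the requirement of 10 mean reads. The lower medians were those of lipid, bile acid and choline carriers with -1.50 over 5 genes, of vitamin, heme and amine carriers with -1.94 over 6, of inorganic ion carriers with -2.47 over 18, of carboxylate carriers with -2.55 over 5 and of organic ion carriers with -3.36 over 6. Where 10 mean reads were required in each tissue, the medians of carboxylate and inorganic ion carriers turned to 0.97 and 0.41. That of vitamin, heme and amine carriers became -0.19, that of lipid, bile acid and choline carriers -1.26 and that of organic ion carriers -1.84. That requirement left 45 of the 46 higher members but 40 of the 62 lower ones. Because it takes out mostly lower genes, it tends to raise medians by construction. It therefore cannot test what the order of the classes rests on. Each class held genes of both directions.

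**Figure D2:**
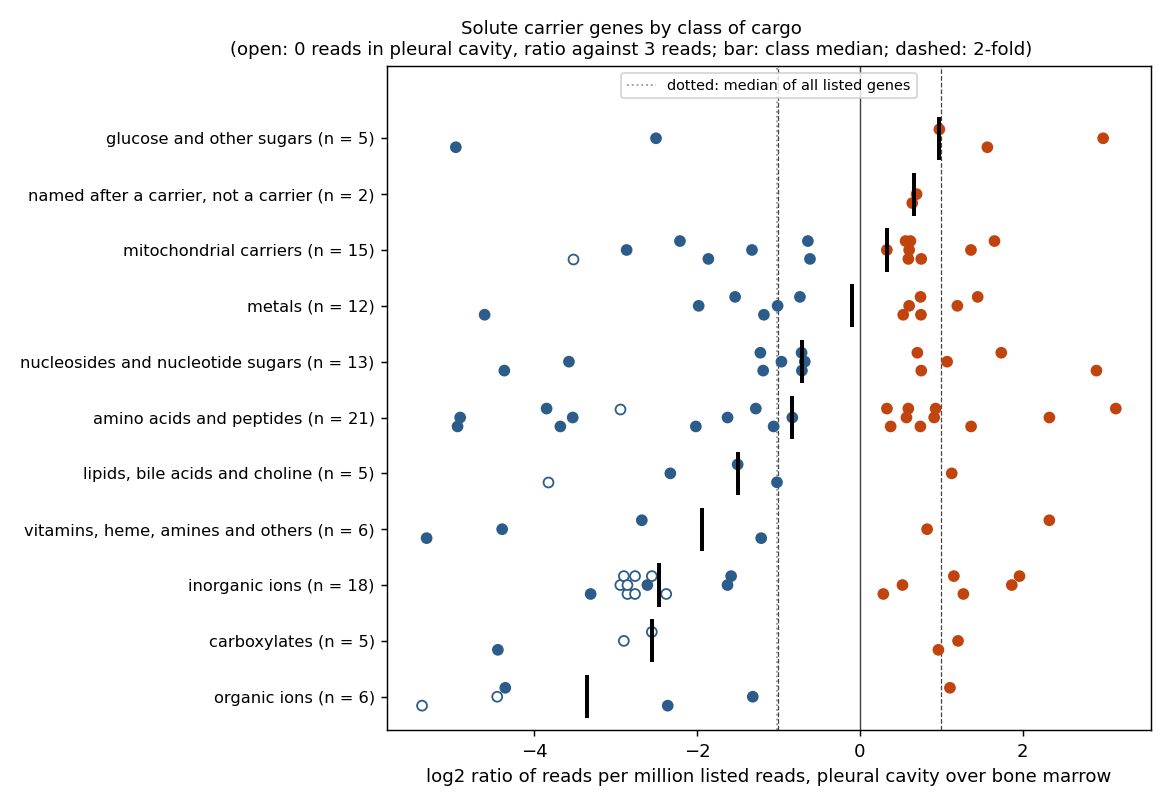
Log2 ratio of reads per 1000000 listed reads, pleural cavity over bone marrow, on the x axis for the 108 genes by class on the y axis. Orange points are higher and blue points lower in pleural eosinophils, open points have 0 reads there and are set against 3 reads, black bars are class medians, dashed lines mark 2-fold and the dotted line the median of all listed genes at -1.02. The sugar carriers have a median of 0.98, and 8 of the 15 open points are inorganic ion carriers.

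All 3 listed facilitative glucose transporters were higher in pleural eosinophils. Slc2a3, which encodes the high-affinity transporter GLUT3, had 18066 mean reads in pleural and 6764.5 in marrow eosinophils, 1.97-fold more after scaling. Slc2a1, which encodes the widely expressed GLUT1, had 4145.5 and 1031.5 mean reads, 2.96-fold more. For Slc2a6, which encodes GLUT6, a hexose transporter of internal membranes, the means were 1756 and 163, 7.95-fold more. The ratio was thus largest for the gene with the lowest level of the 3. Per kilobase of transcript and per 1000000 listed reads, Slc2a3 stood at 286 in pleural eosinophils, Slc2a1 at 79.7 and Slc2a6 at 51.5. In marrow eosinophils the same levels were 145 for Slc2a3, 26.9 for Slc2a1 and 6.48 for Slc2a6, so the order of the 3 was the same in both tissues. Both other genes of the class went the opposite way. Slc45a3, a carrier of the sugar transporter fold, had 13 mean reads in pleural and 299 in marrow eosinophils, a log2 ratio of -4.96 (95% interval of counting error, -5.59 to -4.40). The sodium-coupled inositol transporter gene Slc5a11 had 22 and 92 mean reads.

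Lactate carriers went opposite ways. MCT4, which exports lactate from glycolytic cells, is encoded by Slc16a3, and the mean reads of that gene were 10755.34 in pleural and 3435.325 in marrow eosinophils, 2.31-fold more. MCT1, a lactate and pyruvate carrier that works in both directions, is encoded by Slc16a1, and its mean reads were 32.5 and 522.5, 21.8-fold fewer. Slc16a7, the gene of the related MCT2, had 694 and 262 mean reads, a log2 ratio of 0.97. Within a tissue, the balance of a pair of genes needs no scaling. The pairs of genes compared here were chosen after their values were seen. Of the length-scaled reads on Slc16a3 and Slc16a1, Slc16a3 took 99.7% in pleural and 87.0% in marrow eosinophils. The log2 ratios of the pair lay 5.65 apart (95% interval of counting error, 5.29 to 6.02). Reads of Slc16a3 were fractional. The sodium-coupled carboxylate carriers Slc5a8 and Slc5a12 had 16.5 and 13 mean reads in marrow eosinophils and 0 in pleural eosinophils.

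Sequences before a RefSeq start are shown for 3 of these genes, because Slc2a1 and Slc16a3 were higher together while Slc16a1 was lower. They were also chosen because each holds the letters ACGTG, the core that hypoxia-inducible factors bind. Those of Slc2a1 and Slc16a3 end with the last motif, and their last 3 and 5 bases lie in a GENCODE exon. The last ACGTG of Slc16a3 is thus all exon. The GENCODE gene of Slc16a3 begins at base 120948480, before the sequence shown here, which is upstream of a RefSeq start only. All 3 are RefSeq sequences of GRCm38.p6 on the plus strand, read 5′ to 3′ toward the RefSeq start, with ACGTG on either strand in capitals.

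Slc2a1, chr4:119108495-119108713: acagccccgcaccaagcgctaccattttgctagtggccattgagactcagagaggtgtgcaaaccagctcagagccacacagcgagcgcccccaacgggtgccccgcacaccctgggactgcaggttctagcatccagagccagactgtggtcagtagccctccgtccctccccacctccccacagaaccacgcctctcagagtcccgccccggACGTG
Slc16a3, chr11:120948817-120949057: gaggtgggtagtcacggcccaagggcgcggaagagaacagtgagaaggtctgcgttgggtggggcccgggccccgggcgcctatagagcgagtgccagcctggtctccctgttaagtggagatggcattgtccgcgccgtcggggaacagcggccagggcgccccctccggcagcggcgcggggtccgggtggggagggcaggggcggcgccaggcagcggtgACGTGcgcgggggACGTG
Slc16a1, chr3:104638414-104638663: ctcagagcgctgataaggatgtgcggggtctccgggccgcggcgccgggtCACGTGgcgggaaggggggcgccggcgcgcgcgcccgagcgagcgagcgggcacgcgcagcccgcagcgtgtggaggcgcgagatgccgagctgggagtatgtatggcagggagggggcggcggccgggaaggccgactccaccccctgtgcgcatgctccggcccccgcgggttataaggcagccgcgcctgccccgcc

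Slc2a1 holds the letters 36 bases before the RefSeq start and Slc16a3 holds them 27 and 14 bases before it. In Slc16a1 they form the palindrome CACGTG, which contains ACGTG on both strands, at 200 bases before the start. The window of Slc2a6 does not hold them, and Slc2a3 had no window. Among all 32851 RefSeq windows of 250 bases before a start, 16.6% hold ACGTG and 6.02% hold CACGTG, on either strand. Of the 108 genes, 87 had at least 1 window, and 21.9% of their 114 windows hold ACGTG. By gene, 6 of the 17 over 2-fold higher members with a window hold ACGTG, 9 of the 43 over 2-fold lower members do, and so do 18.5% of all 27025 genes with a window. The palindrome CACGTG is held by 2 of those 17 and by 7 of those 43. Its share by gene over all genes was not counted, and the 6.02% above is a share of windows. A match in letters is a description of the sequence and not a site, and binding was not tested.

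Amino acid carriers went both ways within the Slc1, Slc6, Slc7, Slc38 and Slc43 families. Of the 5 listed Slc7 light chains, carriers that work joined to a heavy chain such as the CD98 protein encoded by Slc3a2, 4 were lower in pleural eosinophils. Of all listed genes, 42.5% were higher. Slc3a2 itself was not listed. Slc7a5, which encodes LAT1, the main importer of leucine and other large neutral amino acids in dividing cells, had 8.94 mean reads in pleural and 94.925 in marrow eosinophils, a log2 ratio of -3.85 (95% interval of counting error, -4.62 to -3.14). Slc7a11, the cystine and glutamate exchanger that feeds glutathione synthesis, had 442.55 and 791.085 mean reads, a log2 ratio of -1.28. The cationic and neutral amino acid exchangers Slc7a6 and Slc7a7 had log2 ratios of -1.06 and -1.62. Slc7a8, which encodes LAT2, had the highest level per length of these 5, with 2674 and 1516 mean reads and a log2 ratio of 0.38, a direction that turned to -0.06 when the median ratio was set to 0. Against the other light chains its place does not depend on scaling, and its log2 ratio lay 4.23 above that of Slc7a5 and 1.66 above that of Slc7a11. Reads were fractional for Slc7a5, Slc7a7 and Slc7a11.

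The sodium-independent Slc43 carriers parted as well. Slc43a2, the gene of LAT4, had 2395 mean reads in pleural and 684.5 in marrow eosinophils, a log2 ratio of 1.37. Its relative Slc43a1, the gene of LAT3, had 1 and 66.5 mean reads, a log2 ratio without the floor of -6.49 with a 95% interval of counting error from -9.55 to -4.61. Slc43a3, which carries purine nucleobases, lies 72985 bases from Slc43a1 on chromosome 2 of GRCm38 and was also lower, with 119 and 1811 mean reads, 20.6-fold fewer.

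Some further amino acid carriers reside in lysosomes, and those given here were picked after their values were seen. Slc38a7, a lysosomal glutamine carrier, had 334 mean reads in pleural and 49 in marrow eosinophils, 5.03-fold more. Slc15a4, which carries histidine and small peptides out of endosomes and lysosomes, had 1129.5 and 436.5, a log2 ratio of 0.93. Slc38a9, the lysosomal arginine carrier and sensor upstream of mTORC1, had 815 and 397.5, a log2 ratio of 0.60. Slc7a14, a lysosomal member of the Slc7 family, went the other way. It had 170.07 mean reads in pleural and 506.655 in marrow eosinophils, with fractional reads and a log2 ratio of -2.01. Apart from these, Slc66a2 of the PQ-loop family was placed in the class by its family number only, and had a log2 ratio of 0.91. It stood at 145 per length in pleural eosinophils, the highest level of the class there, and at 77.0 in marrow eosinophils.

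At the plasma membrane, Slc6a6, the taurine transporter gene, had 8490.5 mean reads in pleural and 3737 in marrow eosinophils, a log2 ratio of 0.74. Slc6a13 and Slc6a12, which carry GABA and betaine, are neighbours 5343 bases apart on chromosome 6, and they went opposite ways. Slc6a13 had 1011 and 501 mean reads and Slc6a12 had 18 and 170, so that their log2 ratios lay 4.25 apart (95% interval of counting error, 3.74 to 4.76). Slc1a4, the neutral amino acid exchanger ASCT1, rested on 36 and 1.5 mean reads, a log2 ratio without the floor of 4.15 with a 95% interval of counting error from 2.54 to 6.46. The glutamate transporter gene Slc1a3 had 0.5 and 25.5 mean reads, a log2 ratio without the floor of -6.11 with an interval from -11.44 to -3.57. Slc6a15, a brain-type neutral amino acid transporter gene, had 17 mean reads in marrow and 0 in pleural eosinophils. Slc7a4, which like Slc7a14 is outside the light chains, had 3 and 68 mean reads. Slc38a6 was lower, with 2834.37 and 3712.24 mean reads and a log2 ratio of -0.83. Slc38a10 had a log2 ratio of 0.33, which became -0.11 when the median ratio was set to 0.

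Genes of amino acid supply and sensing were examined beside the carriers. Of the 27 genes on that list, 11 were listed in the table, 4 higher and 7 lower, where 42.5% of all listed genes were higher. Those that make serine and asparagine were lower, with log2 ratios of -4.99 for Phgdh, -2.89 for Psat1 and -5.34 for Asns. Chac1, which degrades glutathione, had 64.5 mean reads in marrow and 0 in pleural eosinophils. Rptor, a subunit of mTORC1, had a log2 ratio of 1.19.

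**Figure D3:**
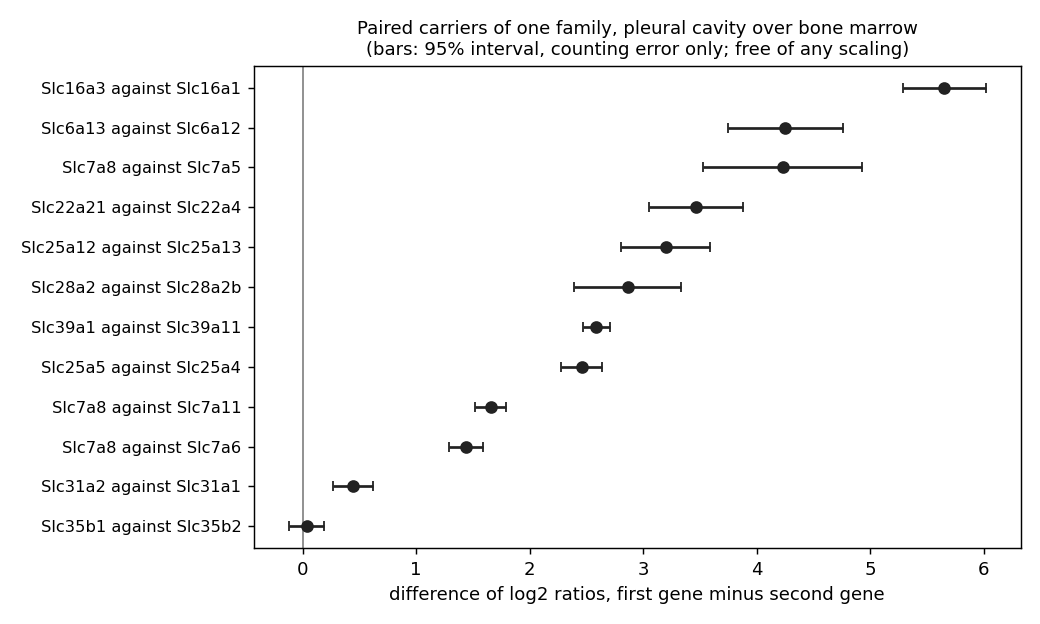
Difference of the log2 ratios of paired genes of one Slc family, first gene minus second gene, on the x axis for 12 pairs on the y axis. Points are differences and bars are 95% intervals that cover counting error only, and scaling cancels out. Slc16a3 against Slc16a1 lies at 5.65, and the interval of Slc35b1 against Slc35b2 spans 0.

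Iron carriers pointed in opposite directions. Slc11a1, which encodes NRAMP1, the pump that draws iron and manganese out of phagosomes, had 2339 mean reads in pleural and 632 in marrow eosinophils, 2.73-fold more. Slc40a1, which encodes ferroportin, the exporter of cellular iron, had 1916.5 and 4086.5, 2.89-fold fewer. Per length, ferroportin stood at 103 in marrow eosinophils, the highest level of any metal carrier there. Around them, 8 of 19 genes of metal storage and sensing were listed, 2 higher and 6 lower, where 42.5% of all listed genes were higher. Tfrc, which takes up transferrin iron, had 181.5 and 981 mean reads, and the heme-degrading Hmox1 had 465 and 1486.5. Ftl1, the ferritin light chain gene, had a log2 ratio of 0.57 with fractional reads.

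ZIP carriers bring zinc into the cytosol, and Slc39a1, Slc39a3 and Slc39a13 had log2 ratios of 0.61, 0.53 and 0.75. The exception was Slc39a11, with 561 mean reads in pleural and 1631.5 in marrow eosinophils, 3.94-fold fewer. Per length, Slc39a1 and Slc39a11 were level in marrow eosinophils, at 50.04 and 49.88, and stood at 76.2 and 12.6 in pleural eosinophils. ZnT carriers remove zinc from the cytosol, and both listed ones were lower. Slc30a5 had 686 and 1018.5 mean reads, and Slc30a4 had 1 and 54, a log2 ratio without the floor of -6.19 with a 95% interval of counting error from -9.26 to -4.31. Mt1, a zinc-binding metallothionein gene, had 160 and 1084 mean reads. The copper carriers Slc31a1 and Slc31a2 lie 62316 bases apart on chromosome 4 and were both lower, with log2 ratios of -1.18 and -0.74. Magnesium carriers were both higher, Slc41a1 with 373.5 and 120 mean reads and Slc41a3 with 1341 and 589.5.

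Mitochondrial carriers included the most abundant member of the family. Slc25a5, which encodes the adenine nucleotide translocase ANT2 that exchanges ADP for ATP, had 21316.5 mean reads in pleural and 10395 in marrow eosinophils, a log2 ratio of 0.60. Slc25a4, the ANT1 gene, had 172 and 460.5, a log2 ratio of -1.86. The ratios of the pair lay 2.46 apart (95% interval of counting error, 2.28 to 2.64), and Slc25a5 took 99.5% of their length-scaled reads in pleural and 97.2% in marrow eosinophils. Thus the balance moved within a pair that the same gene dominated in both tissues. Slc25a3, the phosphate carrier that supplies ATP synthase, was lower, with 3299 and 3785 mean reads and a log2 ratio of -0.64.

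The aspartate and glutamate carriers of the malate shuttle parted in a like manner. Slc25a12 had 2804.5 mean reads in pleural and 1643 in marrow eosinophils, and Slc25a13 had 31 and 166.5. Their log2 ratios lay 3.20 apart (95% interval of counting error, 2.80 to 3.59), while that of Slc25a12 itself was 0.33 and became -0.11 when the median ratio was set to 0. Slc25a11, the oxoglutarate and malate carrier of the same shuttle, had a log2 ratio of -0.61, and the dicarboxylate carrier gene Slc25a10 had -2.21. Slc25a38, which brings glycine into mitochondria for heme synthesis, had 729.415 and 1347.12 mean reads, a log2 ratio of -1.32. Slc25a21, the oxodicarboxylate carrier gene, had 25.5 mean reads in marrow and 0 in pleural eosinophils, at least 11.5-fold lower against the floor of 3 mean reads. Higher genes included Slc25a43 with 1.66, Slc25a30 with 1.37, the folate carrier gene Slc25a32 with 0.76, Slc25a45 with 0.56, the ATP and phosphate carrier gene Slc25a24 with 0.61 and the branched-chain amino acid carrier gene Slc25a44 with 0.62.

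**Figure D4:**
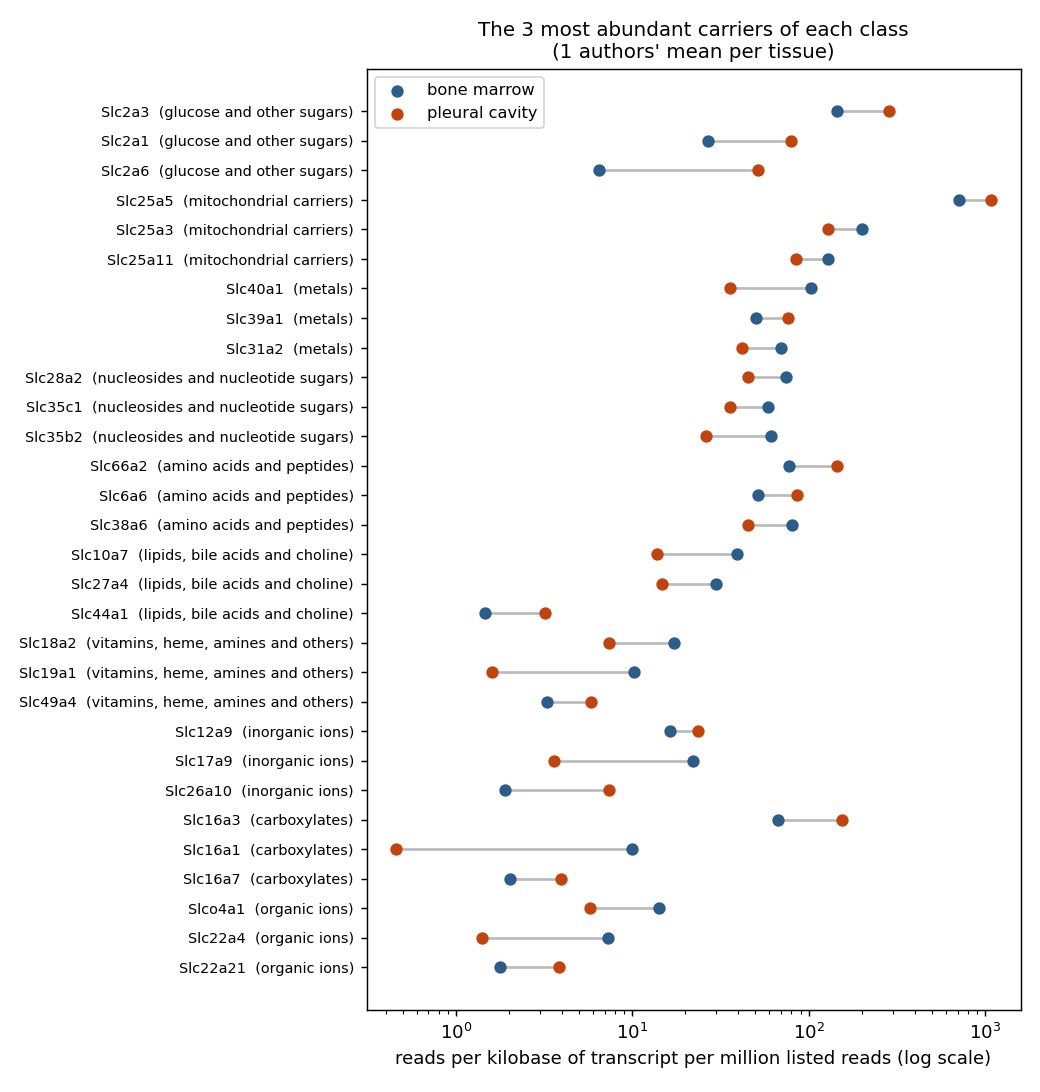
Reads per kilobase of transcript per 1000000 listed reads, on a log scale on the x axis, for the 3 most abundant carriers of each class on the y axis. Blue points are bone marrow and orange points pleural eosinophils, each 1 authors' mean. Slc25a5 has the highest level in both tissues, at 713 in marrow and 1078 in pleural eosinophils, and Slc16a1 shows the widest distance, from 10.04 to 0.460.

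Nucleotide sugar carriers of the Golgi and endoplasmic reticulum supply glycosylation and sulfation. Of these, Slc35a2, which carries UDP-galactose, had a log2 ratio of 0.76. The GDP-fucose carrier gene Slc35c1, needed to make selectin ligands, had 1788 mean reads in pleural and 2164.5 in marrow eosinophils, a log2 ratio of -0.71. Slc35b2, which carries the sulfate donor PAPS, had 969.5 and 1667, a log2 ratio of -1.22. Slc35b1, which brings ATP into the endoplasmic reticulum, had -1.19, and its ratio did not differ from that of Slc35b2 beyond counting error, with a difference of 0.03 (95% interval, -0.12 to 0.19). Genes of the Slc35e group, whose cargo is not settled, were spread widely, with log2 ratios of 2.91 for Slc35e4, 1.74 for Slc35e3 and -0.96 for Slc35e1. The others of the Slc35 family were Slc35d2 with 1.07 and fractional reads, Slc35f6 with 0.71 and Slc35b4 with -0.68. Slc28a2, the purine nucleoside carrier CNT2, had 2837.99 and 3426.835 mean reads, and its neighbour and close relative Slc28a2b had 20.01 and 175.665. Both had fractional reads, so the split between them is uncertain.

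Inorganic ion carriers held 8 of the 15 genes at 0 in pleural eosinophils. These 8, Slc4a1, Slc4a10, Slc8a3, Slc9b1, Slc9b2, Slc17a3, Slc17a6 and Slc24a2, had between 11.5 and 17 mean reads in marrow eosinophils, and against a floor of 3 mean reads they were lower by at least 5.20-fold (Slc8a3) to at least 7.68-fold (Slc9b2). Slc17a9, which loads ATP into vesicles and lysosomes, was lower on more reads, with 131.5 in pleural and 592 in marrow eosinophils, 6.10-fold fewer. The phosphate carrier gene Slc20a2, the anion exchanger gene Slc26a6 and the bicarbonate carrier gene Slc4a8 had log2 ratios of -1.62, -1.58 and -3.31. The higher genes of the class were the potassium and chloride cotransporter gene Slc12a4 with a log2 ratio of 1.27, the sodium and calcium exchanger gene Slc8a1 with 1.16, its relative Slc24a1 with 1.87, Slc26a10 with 1.96 and Slc12a9 with 0.52. With the genes under 10 mean reads in either tissue left out, the median of the class was 0.41 over 10 genes in place of -2.47 over 18. For all 108 genes that filter left 85, of which 32 were over 2-fold lower. The share of all listed genes under that filter is not given.

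Organic ion carriers were lower with a single exception. Slc22a3, which encodes OCT3, a low-affinity carrier of histamine and other amines, had 92 mean reads in marrow eosinophils and 0 in pleural eosinophils, at least 41.6-fold lower against the floor of 3 mean reads. Slco5a1 had 48.5 and 0 mean reads, at least 21.9-fold lower. Slco2b1 had 158.5 mean reads in marrow and 10.5 in pleural eosinophils, and Slco4a1 had 521 and 284. The exception was Slc22a21, a carnitine carrier gene with 212.965 mean reads in pleural and 72.87 in marrow eosinophils, which lies 2791 bases from Slc22a4 on chromosome 11. Slc22a4, the ergothioneine carrier gene, had 51 and 193, and the log2 ratios of the neighbours lay 3.47 apart (95% interval of counting error, 3.05 to 3.88).

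Fatty acid carriers were lower, with log2 ratios of -1.02 for Slc27a4 and -2.33 for Slc27a1, and the choline carrier gene Slc44a1 was higher with 1.13. Its relative Slc44a4 had 31.5 mean reads in marrow and 0 in pleural eosinophils, and Slc10a7, of the bile acid carrier family, had a log2 ratio of -1.50 with fractional reads. Among vitamin carriers, the riboflavin carrier gene Slc52a3 had 306.5 mean reads in pleural and 45 in marrow eosinophils, 5.02-fold more, whereas the reduced folate carrier gene Slc19a1 had 73 and 344.5, a log2 ratio of -2.68. Slc18a2, which loads histamine and other monoamines into granules, had 447.5 and 764, a log2 ratio of -1.21, and its relative Slc18b1 had 4.945 and 76.66. The urea carrier gene Slc14a1 had 2.5 and 88.5 mean reads, a log2 ratio without the floor of -5.58 with a 95% interval of counting error from -7.23 to -4.34. Slc49a4 had 504 and 209.5 mean reads.

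Markers of other cells moved with the tissue. Fewer cells of a type and less RNA per cell cannot be told apart in such samples. Of 14 eosinophil markers 12 were listed, 5 higher and 7 lower, where 42.5% of all listed genes were higher. Their summed level was 14687 per 1000000 listed reads in pleural and 98236 in marrow eosinophils. The eosinophil surface markers Siglecf and Ccr3 had log2 ratios of 1.15 and 1.54, while the granule protein genes Epx and Prg2 had -9.11 and -8.99. All 15 neutrophil and granulocyte precursor markers were listed, 14 of them lower, and their summed level was 4478 per 1000000 listed reads in pleural and 118133 in marrow eosinophils. Of 7 basophil and mast cell markers 6 were listed, all lower, with sums of 18.4 and 1057. Their median log2 ratio was -7.93, beside -1.21 for Slc18a2. For erythroid cells 5 of 11 markers were listed, all lower, with sums of 1.38 and 75.5. Slc4a1, which encodes the red cell anion exchanger, and Slc14a1 and Slc25a38, which erythroid cells express strongly, were lower alongside these markers. The median log2 ratio of the 5 erythroid markers was -4.22, and that of Slc25a38 was -1.32. Of 13 macrophage and monocyte markers 7 were listed, 4 higher and 3 lower, and their summed level was 5078 in pleural and 9905 in marrow eosinophils. Csf1r had 1.94 and C1qb 1.77, while Ly6c2 had -5.62, Lyz2 -1.24 and Mrc1 -1.27, beside the higher Slc11a1. Of 12 lymphocyte markers 2 were listed, Ms4a1 with 1.34 and Nkg7 with -6.98, with sums of 29.97 and 896. The part of these cells in the carrier ratios was not tested.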

How the data were processed

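Per the study's methods and the submitters' processing notes, reads were trimmed with SOAPnuke, then HISAT2 2.1.0 aligned them to GRCm38, Bowtie2 2.2.5 assigned them to genes and RSEM 1.2.8 estimated counts. The deposited values used here are such expected counts, of which the authors gave 1 mean per gene and tissue. The table also holds the authors' log2 fold changes, p-values and q-values from DESeq2, none of which was used. Unused columns with values of single samples numbered 0, and the depth of each library is unknown. With no value per library, no replicate error, test or leave-one-out analysis could be had.

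Samples were grouped by the BM or MPE in their titles, which the methods give as bone marrow and pleural cavity. Means were scaled to the reads of all listed genes, and raised to a floor of 3 mean reads, which is 3 per library. The 95% intervals treat 2 times a mean, rounded, as the reads of both libraries. Intervals of single ratios are exact conditional binomial (Clopper-Pearson) ones and those of pairs are normal intervals of the log odds, given where every count was at least 10. They cover counting error only. The ratios, thresholds and intervals were tested on simulated data. Lengths (the longest protein-coding transcript) and positions came from GENCODE M21 on GRCm38, an earlier release than the authors' on the same assembly. A length was found for 107 of the 108 genes and 104 of the 383 genes that the rule finds in that annotation were listed, matched by Ensembl identifier. Upstream sequences came from RefSeq, and those that reach into a GENCODE exon end at the last motif. Any family member could be named, and those described most fully were the most abundant per length and the largest ratios of each class, and those at 0. The members, classes and lists were chosen with earlier results of these data known. Some genes counted in the totals are not reported here by name. Alternatives covered scaling, the floor, filters on low or fractional reads and the fold threshold. Software was scipy 1.17.1 and numpy 2.4.6, with pandas 2.3.3 for tables and matplotlib 3.10.9 for plots, under Python 3.11.15.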

Additional observations from a re-analysis of the deposited data

How the results depend on the processing

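No paired analysis was possible because each tissue has 1 mean, which also leaves no replicate to leave out. Another fold threshold cannot move a median, and asking for 10 mean reads in 1 tissue removed no gene, so these settings say nothing about stability. The 20 genes over 2-fold higher became 40 with unscaled mean reads (background 30.5%) and 11 with the median ratio set to 0 (9.04%). Past 1.5-fold 38 were higher and past 4-fold 5, counts for which the share of all listed genes is not given. Where 10 mean reads were required in each tissue, 85 genes were left, 32 of them over 2-fold lower, 40 lower and 45 higher, fewer genes by construction. That filter takes out every gene at 0 in pleural eosinophils, and so mostly lower genes. It turned the median of the whole family from -0.99 to 0.33. The class medians turned to 0.97 for carboxylates, 0.41 for inorganic ions, 0.38 for amino acids and peptides and 0.53 for metals. Shares and medians of all listed genes under this filter are not given. Their median of -1.02 was 0.44 where mean reads reached 1000 in each tissue. Without fractional reads the amino acid median was 0.48. The inorganic ion median was -2.91 both with the median ratio set to 0 and with 1 read added in place of the floor, which also took the carboxylate median to -4.25. The mitochondrial median was 0.77 unscaled and -0.11 with the median ratio set to 0. The metal median was 0.34 unscaled and 0.04 with the centre of the empty band set to 0. The median of Slc9a3r1 and Slc9a3r2 was 1.11 unscaled, 0.23 with the median ratio set to 0, 0.56 without the top 100 genes in the total and 0.82 with the centre of the empty band set to 0. This last scaling was chosen after seeing the data. It shifts every log2 ratio by 0.14, because ratios are missing between -0.47 and 0.18 among listed genes whose mean reads reach 1000 in each tissue.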

Other observations

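Solute carriers named outside the Slc series also went both ways. Of 46 such genes on a list, 18 were listed in the table, 11 higher and 7 lower, with a median log2 ratio of 0.64. Of all listed genes, 42.5% were higher and the median was -1.02. Ucp2, an uncoupling protein gene of the mitochondrial carrier family, had 32304 mean reads in pleural and 15091.5 in marrow eosinophils. Per length its level in pleural eosinophils was 508, between that of Slc25a5 and that of Slc2a3. Of the sideroflexin genes, Sfxn3 had a log2 ratio of 2.12, Sfxn5 one of -1.34 and Sfxn1, which encodes a mitochondrial serine carrier, one of -2.12. Mfsd5, which carries molybdate, had 8593.5 and 1205 mean reads, and the sphingosine phosphate carrier relative Spns3 had 2000 and 5799.

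Pumps that spend ATP were listed too. Of 25 P-type pumps, 12 were listed, 6 higher and 6 lower, beside the same 42.5% of all listed genes. Atp2b1, which expels calcium from the cell, stood apart with a log2 ratio of 3.38 and fractional reads, while its relative Atp2b4 had -2.31. Atp1b1, a sodium pump subunit gene, had -4.45 with fractional reads. Of 16 listed ABC transporters, 7 were higher and 9 lower, again beside 42.5%, from Abca9 with 2.71 to Abcb4 with -3.84, which rested on 3.5 mean reads in pleural eosinophils. All these genes come from the same means, so no test was possible.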
